A study of Mus musculus with 32 samples.

Results

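The genes described here are 8 secreted antagonists of Wnt signalling: the secreted frizzled-related protein genes Sfrp1, Sfrp2, Sfrp4, Sfrp5 and Frzb, the dickkopf family genes Dkk2 and Dkk3, and Wif1. They were picked by name from the 53801 gene IDs listed in the tables of quadriceps RNA. The set was named for Sfrp4, whose level differed between genotypes at 25 weeks in these same libraries. The genotype values at 25 weeks are therefore given as a description for all 8 genes, with no test, and the genotype comparison at 5 weeks, made in other mice, is tested. That test is not fully independent of the choice of genes. The set was chosen with earlier results of these data known, and the model takes its spread from all 32 libraries, those of 25 weeks included.

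Wnt proteins are secreted, lipid-modified ligands that bind Frizzled receptors and, for the β-catenin branch, the co-receptors Lrp5 and Lrp6, after which β-catenin enters the nucleus and activates target genes. Secreted frizzled-related proteins carry a domain like the ligand-binding part of Frizzled and can bind Wnt proteins outside the cell, Wif1 also binds Wnt proteins, and Dkk2 acts through Lrp5 and Lrp6. Dkk3 is the divergent dickkopf family member, and its place in the pathway is less clear. In skeletal muscle, Wnt signalling is known for its parts in development, in the differentiation of satellite cells and in the behaviour of the connective tissue cells between the fibres.

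RNA came from the quadriceps of 32 mice that were either wild type (WT) or homozygous for the knockout allele Col6a2 tm1(KOMP)Vlcg (Col6a2-/-), which lacks a working α2 chain of collagen VI in all cells that would make it. The allele was obtained on C57BL/6N, 5 generations of crossing to C57BL/6J followed, and both genotypes were produced by heterozygous breeders, so some C57BL/6N sequence near the allele may differ between genotypes. Mice were female or male and 5 or 25 weeks old, with 4 mice in each of 8 groups, and no group received a treatment. Different mice were used at the 2 ages, and p-values measure the spread between mice.

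Levels are in TPM, a per-length share of all transcripts on which genes can be compared with each other. Changes are differences in log2(TPM + 1), which understate the change of genes at low levels, as these antagonists are. They come from one limma model over 12817 genes, and a gene is said to be called where its Benjamini-Hochberg adjusted p lay under 0.05. The libraries held 10399 to 12877 genes at 1 TPM or more, and mitochondrial RNA took 31.9% to 46.9% of TPM, which left 28.4% to 44.2% for genes other than these and Rn7s. Col6a2 lay between 6.60 and 51.2 TPM in WT libraries and at or below 0.171 TPM in all Col6a2-/- libraries, so the genotype labels held. The 6 muscle fibre markers (Acta1, Ckm, Myh4, Tnnt3, Mylpf and Ttn) summed to between 21400 and 39520 TPM in every library, which shows skeletal muscle but not which muscle. The median gene was shifted by 0.145 (log2) between genotypes at 5 weeks and by 0.0823 at 25 weeks, upward in Col6a2-/-. It was shifted with age by -0.0762 in WT and by -0.136 in Col6a2-/-. Of the genes called at 5 weeks, 91.6% were higher in Col6a2-/- on the TPM scale, but 51.1% after median-of-ratios scaling, 45.8% after quantile normalization and 64.8% when TPM was rescaled without the 100 most abundant genes. For age, 22.6% of calls in WT and 15.8% in Col6a2-/- were higher at 25 weeks, against 47.4% and 48.5% after median-of-ratios scaling, 51.4% and 53.2% after quantile normalization and 40.9% and 41% without the 100 most abundant genes. Rescaling without mitochondrial and Rn7s genes gave 51.2% in WT and 24.3% in Col6a2-/- for age, and 92.4% for genotype at 5 weeks.

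All 8 antagonists were expressed at low levels. Over the 8 groups the mean level lay between 0.696 and 6.79 TPM for Sfrp4, 1.21 and 7.28 TPM for Frzb, 0.607 and 6.53 TPM for Wif1, and 1.27 and 6.38 TPM for Dkk3. It lay between 1.74 and 3.35 TPM for Sfrp5, 1.03 and 2.72 TPM for Dkk2, 1.02 and 1.81 TPM for Sfrp2, and 0.525 and 1.51 TPM for Sfrp1. No library listed any of the 8 at 0, and all 8 passed the filter of at least 1 TPM in at least 4 libraries. Of a list of 10 other Wnt antagonists, Apcdd1 and Igfbp4 passed that filter, with medians of 1.22 and 14.4 TPM over the 32 libraries. Dkk1, the best known dickkopf, was listed at 0 in 31 of 32 libraries, Sost in 31 and Dkk4 in all 32.

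**Figure D1:**
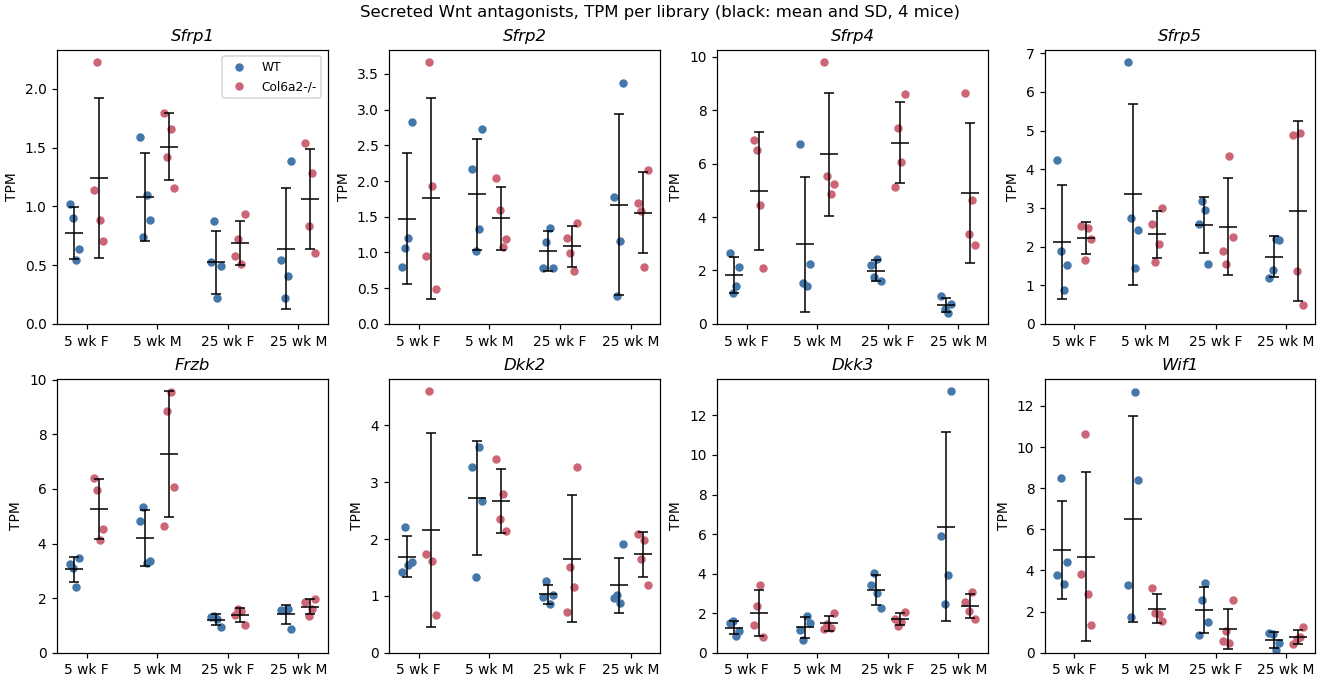
Level of each antagonist in TPM (vertical axes, linear from 0) in the 32 libraries, by age and sex; blue points are WT mice, red points Col6a2-/- mice, and black marks give the mean and SD of 4 mice. The Col6a2-/- points of Sfrp4 lie at 2.94 TPM or higher at 25 weeks, above every WT point of that age, and the Frzb points of both genotypes lie at 1.96 TPM or lower at 25 weeks.

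The first question was whether loss of Col6a2 changed the antagonists at 5 weeks. Sfrp4 and Frzb rose in Col6a2-/- muscle, and the other 6 antagonists were not called. Sfrp4 had a mean of 5.67 ± 2.21 TPM in Col6a2-/- and 2.41 ± 1.82 TPM in WT (SD, n = 8), a ratio of means of 2.35. Frzb had 6.27 ± 2.0 TPM and 3.63 ± 0.965 TPM (SD, n = 8), a ratio of 1.73. These 2 calls of 8 stand beside a background in which 25.4% of all genes tested were called and 23.2% were called higher in Col6a2-/-, so the number of antagonists called is close to that of genes in general. The median change of the 8 was 0.147, beside 0.145 for all genes.

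Sfrp4 (ENSMUSG00000021319) lies on GRCm38 chromosome 13, 19623104 to 19632994, plus strand, and encodes a secreted frizzled-related protein known for its role in bone. The mean read depth over Sfrp4 ran from 1.06 to 37.2 between libraries. At 5 weeks the WT females had 2.64, 1.17, 1.40 and 2.14 TPM of Sfrp4 and the WT males 6.73, 1.53, 1.42 and 2.24 TPM. The Col6a2-/- females had 6.88, 6.52, 4.43 and 2.10 TPM and the Col6a2-/- males 9.79, 5.54, 4.86 and 5.24 TPM. The genotypes overlapped through WT male 1, which was as high as the Col6a2-/- mice, and Col6a2-/- female 4, which was as low as the WT mice, while all 8 Col6a2-/- mice lay above the WT mean of their sex. The change was 1.02 (SE 0.219, limma adjusted p 0.00125), and an exact permutation test of 8 against 8 gave p = 0.00528 (two-sided). Without WT male 1 the change was 1.21, the highest over the 32 fits that each left out 1 library.

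Within females the Sfrp4 change at 5 weeks was 1.02 (SE 0.309, limma adjusted p 0.0305), and within males it was 1.02 (SE 0.309, limma adjusted p 0.0508). The genotype effects of the sexes differed by 0.0015 (95% interval -0.893 to 0.896), an interval that is nearly as wide on either side as the effect itself. Single libraries and scalings decided which side of the threshold each sex fell on. The call in females was lost with no TPM filter (limma adjusted p 0.0724), without mitochondrial and Rn7s genes (0.0667), after quantile normalization (0.0506) and when only 5-week libraries were fitted (0.0947). In males it was gained without mitochondrial and Rn7s genes, without the 100 most abundant genes, and after median-of-ratios scaling or quantile normalization (limma adjusted p 0.0243 to 0.0451). A replicate block also gave a call in males (limma adjusted p 0.0174). With 1 library left out, the call in females was lost without WT female 2 or 3 or without Col6a2-/- female 1 or 2 (limma adjusted p 0.0773 to 0.147). In males it was gained without WT male 1, with a change of 1.40 (limma adjusted p 0.00287), and also without Col6a2-/- male 4, without 5-week Col6a2-/- female 1, 2 or 4, or without 25-week Col6a2-/- male 1 or 4 (limma adjusted p 0.0248 to 0.0499).

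Frzb (ENSMUSG00000027004; chromosome 2, 80411970 to 80447625, minus strand) encodes secreted frizzled-related protein 3, first known from cartilage. At 5 weeks the WT females had 3.24, 3.12, 2.40 and 3.45 TPM of Frzb and the WT males 4.83, 5.34, 3.29 and 3.35 TPM. The Col6a2-/- females had 6.39, 5.97, 4.13 and 4.52 TPM and the Col6a2-/- males 4.63, 8.86, 9.55 and 6.08 TPM. Within females the genotypes did not overlap, and within males Col6a2-/- male 1 fell below WT males 1 and 2. The change was 0.63 (SE 0.118, limma adjusted p 0.00029), with all 8 Col6a2-/- mice above the WT mean of their sex and an exact permutation p of 0.00218 (two-sided). It was 0.62 in females (SE 0.167, limma adjusted p 0.0172) and 0.65 in males (SE 0.167, limma adjusted p 0.0187), and the sexes differed by 0.031 (95% interval -0.453 to 0.516). Leaving out WT female 3 or Col6a2-/- female 1 or 2 ended the call in females (limma adjusted p 0.0616 to 0.0861), and leaving out WT male 3 or 4 or Col6a2-/- male 2 or 3 ended it in males (limma adjusted p 0.0793 to 0.102). Median-of-ratios scaling, quantile normalization and a fit of 5-week libraries alone also ended it in both sexes (limma adjusted p 0.0538 to 0.133), and rescaling without mitochondrial and Rn7s genes ended it in females (limma adjusted p 0.0675).

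Within one sex, 2 of the 8 antagonists were called in 5-week females, where 12.9% of all genes were called, and 1 in 5-week males, where 5.03% were. These shares rest on single libraries: the 1648 genes called in females became 455 without Col6a2-/- female 2 and 3865 without Col6a2-/- female 4, and the 645 called in males became 313 without Col6a2-/- male 1 and 1003 without Col6a2-/- male 4. No antagonist was called for a genotype effect that differed between the sexes. In that limma comparison 0% of all genes were called, none of the 8 antagonists reached an unadjusted p under 0.05, and 253 of the 12817 genes did.

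The remaining antagonists were not called for genotype at 5 weeks, although 2 of them had an unadjusted p under 0.05. Wif1 (ENSMUSG00000020218; chromosome 10, 121033960 to 121100650, plus strand), which encodes Wnt inhibitory factor 1, had 3.76, 8.50, 3.32 and 4.41 TPM in WT females and 3.28, 1.72, 12.7 and 8.42 TPM in WT males. It had 3.84, 10.7, 2.86 and 1.33 TPM in Col6a2-/- females and 3.16, 1.95, 1.90 and 1.54 TPM in Col6a2-/- males. The genotypes overlapped throughout and single mice were far above the others, WT male 3 and Col6a2-/- female 2 most of all. The change was -0.64 (SE 0.294, limma adjusted p 0.108; exact permutation p = 0.115). It was called without WT male 2 (-0.84, limma adjusted p 0.0335), without Col6a2-/- female 2 (-0.86, limma adjusted p 0.0309), after median-of-ratios scaling (-0.79, limma adjusted p 0.0399) and after quantile normalization (-0.83, limma adjusted p 0.0309).

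Sfrp1 (ENSMUSG00000031548; chromosome 8, 23411502 to 23449632, plus strand), another frizzled-related Wnt-binding protein gene, ranged from 0.545 to 1.59 TPM in the 8 WT mice and from 0.707 to 2.23 TPM in the 8 Col6a2-/- mice at 5 weeks. The ranges overlapped, with medians of 0.894 and 1.29 TPM. Its change was 0.29 (SE 0.135, limma adjusted p 0.111; exact permutation p = 0.0517), and it was called without Col6a2-/- female 4 (0.35, limma adjusted p 0.0465). For Sfrp2 (ENSMUSG00000027996; chromosome 3, 83766321 to 83774316, plus strand), Sfrp5 (ENSMUSG00000018822; chromosome 19, 42197971 to 42202252, minus strand), Dkk2 (ENSMUSG00000028031; chromosome 3, 132085292 to 132180304, plus strand) and Dkk3 (ENSMUSG00000030772; chromosome 7, 112116017 to 112159057, minus strand) the changes were -0.03, -0.07, 0.06 and 0.24. Their 95% intervals ran from -0.467 to 0.398 for Sfrp2, -0.584 to 0.449 for Sfrp5, -0.322 to 0.437 for Dkk2 and -0.169 to 0.642 for Dkk3. These intervals include 0 and reach changes of 0.4 or more in size, so a moderate genotype effect on these 4 genes remains possible. The signs for Sfrp2, Sfrp5 and Dkk2 turned when single libraries were left out, as to -0.11 for Dkk2 without Col6a2-/- female 2, to 0.090 for Sfrp2 without Col6a2-/- female 4 and to 0.095 for Sfrp5 without WT male 1. The 3′ end of Sfrp2 overlaps the antisense gene Gm26771 (minus strand, 83773853 to 83789956), and since the use of strand in counting is not given in the sources used here, Sfrp2 levels may hold reads from it.

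**Figure D2:**
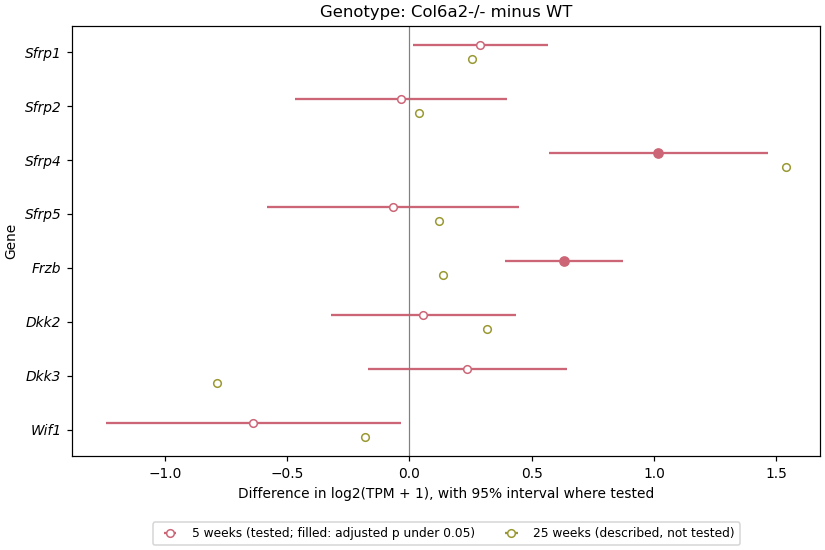
Difference between genotypes in log2(TPM + 1), Col6a2-/- minus WT, for each antagonist at 5 weeks (red, tested) and 25 weeks (olive, described without a test or interval); points are the model estimates, bars the 95% intervals of the tested values, and filled points are called. At 5 weeks Sfrp4 (1.02) and Frzb (0.63) are filled, and at 25 weeks Sfrp4 lies at 1.54 and Dkk3 at -0.79.

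Markers of several cell types moved with genotype at 5 weeks, where 25.4% of all genes were called and 23.2% called higher in Col6a2-/-. Of 10 markers of fibro-adipogenic progenitors, the connective tissue cells of muscle, 6 rose (Col3a1, Lum, Dpt, Ly6a, Cd34 and Pdgfra, by 0.32 to 1.04). The summed level of that list ran from 677 to 942 TPM in WT females and 847 to 1539 TPM in WT males, and from 612 to 2054 TPM in Col6a2-/- females and 1276 to 2110 TPM in Col6a2-/- males. Collagen genes are a large part of this sum: Col3a1 had means of 662 TPM in Col6a2-/- and 324 TPM in WT, and Col1a1, not called, 201 and 227 TPM. Col6a2-/- female 4, the lowest Col6a2-/- mouse for Sfrp4, was also the lowest of its group for this list, and WT male 1, the highest WT mouse for Sfrp4, had 1284 TPM, between the extremes of its group. WT male 1 had the highest macrophage sum of any WT mouse (43.0 TPM) and the highest Schwann cell, mural cell and endothelial sums of its group, and Col6a2-/- female 4 the lowest macrophage (27.6 TPM), satellite cell (11.3 TPM), tenocyte, endothelial and Schwann cell sums of its group. All 5 macrophage markers rose, with sums of 25.5 to 43.0 TPM in WT and 27.6 to 106 TPM in Col6a2-/-. All 4 tested of 5 satellite cell and myoblast markers rose (Mymk, Myog, Myod1 and Myf5, by 0.26 to 1.84), with sums of 6.00 to 12.2 TPM in WT and 11.3 to 42.0 TPM in Col6a2-/-. Of 5 endothelial markers 3 rose and of 6 mural cell markers 1 rose (Acta2), 3 of 6 muscle fibre markers fell (Tnnt3, Ckm and Myh4), and none of 8 tenocyte, 4 tested Schwann cell or 4 adipocyte markers was called. No marker of these lists was at 0 in any 5-week library. The part of these cell types in the Sfrp4 and Frzb results was not tested, and in bulk RNA fewer cells of a type and less RNA per cell cannot be told apart.

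At 25 weeks the values that chose Sfrp4 were as follows. The WT females had 2.22, 1.74, 2.43 and 1.61 TPM of Sfrp4 and the WT males 1.05, 0.573, 0.418 and 0.746 TPM. The Col6a2-/- females had 5.13, 7.35, 6.07 and 8.60 TPM and the Col6a2-/- males 8.66, 3.36, 4.65 and 2.94 TPM. No Col6a2-/- mouse overlapped a WT mouse, and the WT males were lower than the WT females. The means were 5.84 ± 2.22 and 1.35 ± 0.761 TPM (SD, n = 8), a ratio of 4.34, and the change was 1.54 (SE 0.219), 1.37 in females and 1.72 in males. With a pseudocount of 0.1 in place of 1 it was 2.15. In this comparison 4.7% of all genes (603) were called, with 270 to 983 genes when 1 library was left out, from which nothing is read about the antagonists, since the comparison chose the set.

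Over the 8 groups, Sfrp4 means ordered from 25-week WT males (0.696 ± 0.270 TPM) through 5-week WT females (1.84 ± 0.678), 25-week WT females (2.0 ± 0.387) and 5-week WT males (2.98 ± 2.52) to the Col6a2-/- groups. These were 25-week males (4.90 ± 2.61 TPM), 5-week females (4.98 ± 2.20), 5-week males (6.36 ± 2.31) and 25-week females (6.79 ± 1.51; SD, n = 4). Every WT group mean lay below every Col6a2-/- group mean. The step above the 25-week WT males was larger than the SD of either neighbour, that from 25-week WT females to 5-week WT males was larger than the SD of the females alone, and the other neighbours differed by less than the SD of either.

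Dkk3 had the opposite sign at 25 weeks. The WT females had 3.40, 4.04, 3.01 and 2.25 TPM of Dkk3 and the WT males 5.88, 2.48, 3.94 and 13.2 TPM, while the Col6a2-/- females had 1.73, 1.36, 1.56 and 2.08 TPM and the Col6a2-/- males 2.58, 2.11, 3.09 and 1.68 TPM. All 8 Col6a2-/- mice lay below the WT mean of their sex, the females of the genotypes did not overlap, and WT male 4 stood far above every other mouse. The change was -0.79 (SE 0.198), and -0.59 without WT male 4, the smallest in size when 1 library was left out. The remaining changes at 25 weeks were 0.32 for Dkk2 (SE 0.186), 0.26 for Sfrp1 (SE 0.135), 0.14 for Frzb (SE 0.118), 0.12 for Sfrp5 (SE 0.253), 0.04 for Sfrp2 (SE 0.211) and -0.18 for Wif1 (SE 0.294). These small values moved with single settings: Sfrp1 was 0.61 with a pseudocount of 0.1, Dkk2 was 0.19 without Col6a2-/- female 4, Frzb was 0.080 without WT male 4, and Wif1 ran from -0.32 without Col6a2-/- female 4 to -0.084 without WT female 3. Over the alternatives Frzb ran from 0.00995 to 0.224. Sfrp5 ran from -0.017 without Col6a2-/- male 3 to 0.32 without Col6a2-/- male 4, and Sfrp2 from -0.098 without WT male 2 to 0.18 without WT male 4. The genotype effect at 25 weeks minus that at 5 weeks was -1.02 for Dkk3 (SE 0.281), 0.52 for Sfrp4 (SE 0.309) and -0.49 for Frzb (SE 0.167), given without a test since it holds the 25-week values.

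At 25 weeks, 5 of 10 markers of fibro-adipogenic progenitors rose in Col6a2-/- (Col3a1, Pdgfra, Dpt, Cd34 and Lum), and their list summed to 474 to 568 TPM in WT females and 309 to 478 TPM in WT males, against 530 to 779 TPM and 512 to 830 TPM in Col6a2-/- females and males. All 5 macrophage markers rose, with sums of 13.5 to 34.0 TPM in WT and 29.8 to 54.6 TPM in Col6a2-/-. Of all genes, 4.7% were called in this comparison. No marker of the other lists was called at that age, and among all listed markers Mymk was the one at 0 in some libraries, in WT. The part of these cells in the Sfrp4 and Dkk3 values was not tested.

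The second question was how the antagonists changed between 5 and 25 weeks. In WT muscle, Frzb, Wif1 and Dkk2 fell with age and Dkk3 rose, and in Col6a2-/- muscle Frzb and Wif1 fell. The age differences of Sfrp4 hold the 25-week values that chose the set, so Sfrp4 is left out of these counts and medians. In WT there were 4 calls of 7, beside 19.8% of all genes called and 15.3% called lower at 25 weeks, and the median change of the 7 was -0.301 beside -0.0762 for all genes. In Col6a2-/- there were 2 calls of 7, beside 34.2% of all genes called and 28.8% called lower, with a median of -0.311 beside -0.136. The libraries of both genotypes and both ages also enter the genotype comparisons above, so the comparisons are not independent of each other. The 5-week Col6a2-/- mice enter both the rise of Frzb with genotype and its fall with age in Col6a2-/-.

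Frzb fell with age in both genotypes. At 25 weeks it had 1.33, 1.34, 1.25 and 0.925 TPM in WT females, 1.56, 1.57, 1.61 and 0.877 TPM in WT males, 1.39, 1.61, 1.53 and 1.01 TPM in Col6a2-/- females and 1.84, 1.34, 1.61 and 1.96 TPM in Col6a2-/- males. In neither genotype did any 25-week mouse reach a 5-week mouse. The change was -0.99 in WT (SE 0.118, limma adjusted p 5.6e-07), a 2.77-fold lower mean, and -1.48 in Col6a2-/- (SE 0.118, limma adjusted p 2.3e-10), a 4.08-fold lower mean.

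Wif1 fell from 5.76 ± 3.72 TPM at 5 weeks to 1.34 ± 1.10 TPM at 25 weeks in WT, and from 3.41 ± 3.06 to 0.972 ± 0.698 TPM in Col6a2-/- (SD, n = 8). At 25 weeks its levels were 0.874, 2.56, 3.37 and 1.48 TPM in WT females, 0.940, 0.896, 0.111 and 0.480 TPM in WT males, 0.564, 1.08, 0.457 and 2.55 TPM in Col6a2-/- females and 0.448, 0.678, 0.747 and 1.26 TPM in Col6a2-/- males. The ages overlapped in both genotypes, but all 8 mice at 25 weeks were below the 5-week mean of their sex and genotype. The changes were -1.48 in WT (SE 0.294, limma adjusted p 0.00063) and -1.02 in Col6a2-/- (SE 0.294, limma adjusted p 0.00856), and both calls held in all 32 fits that left out 1 library.

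Dkk2, which encodes a dickkopf protein that binds Lrp5 and Lrp6, had 1.41, 2.21, 1.54 and 1.59 TPM in 5-week WT females and 3.26, 1.33, 3.61 and 2.68 TPM in 5-week WT males. At 25 weeks it had 0.979, 1.25, 0.854 and 1.02 TPM in WT females and 0.959, 1.02, 0.868 and 1.91 TPM in WT males, so the ages overlapped through 25-week WT male 4. The change was -0.57 (SE 0.186, limma adjusted p 0.0282), and its call was lost without 5-week WT female 2, 5-week WT male 1 or 3, or 25-week WT male 1, 2 or 3 (limma adjusted p 0.0503 to 0.0653), and without the TPM filter (limma adjusted p 0.0731). In Col6a2-/- the change of Dkk2 was -0.31 (SE 0.186, limma adjusted p 0.198), and it was called there without 5-week Col6a2-/- female 4 (-0.44, limma adjusted p 0.0425), when 4 of the 7 antagonists were called. The age change of Dkk2 in Col6a2-/- minus that in WT was 0.26 (SE 0.262), given without a test. A call in WT alone therefore does not show that the genotypes differed.

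Dkk3 rose in WT from 1.28 ± 0.411 to 4.78 ± 3.59 TPM (SD, n = 8), a ratio of 3.74. Its 5-week values were 1.5, 1.61, 0.867 and 1.11 TPM in WT females and 1.15, 0.622, 1.84 and 1.51 TPM in WT males, all of them below every 25-week WT value. The change was 1.20 (SE 0.198, limma adjusted p 7.4e-05), and 1.0 without 25-week WT male 4. In Col6a2-/- Dkk3 had 1.42, 2.35, 3.43 and 0.793 TPM in 5-week females and 1.21, 1.45, 1.27 and 2.01 TPM in 5-week males. Here the ages overlapped, and the change was 0.17 (95% interval -0.232 to 0.580, limma adjusted p 0.522).

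For Sfrp4 the age differences are given without a test, as -0.48 in WT (SE 0.219) and 0.04 in Col6a2-/- (SE 0.219). The WT value was -0.29 without 5-week WT male 1 and -0.78 with a pseudocount of 0.1, and the Col6a2-/- value ran from -0.10 to 0.14 when 1 library was left out. Sfrp1 differed with age by -0.30 in WT (SE 0.135, limma adjusted p 0.120; 0.0245 without 25-week WT male 4) and by -0.33 in Col6a2-/- (SE 0.135, limma adjusted p 0.0549). The latter was called in 7 of the 32 fits that left out 1 library (limma adjusted p 0.0222 to 0.0493): without 25-week WT male 2 or 4, 5-week Col6a2-/- female 3 or 4 or male 4, or 25-week Col6a2-/- female 4 or male 1. For Sfrp2 the changes were -0.20 in WT and -0.12 in Col6a2-/-, and for Sfrp5, an antagonist known from fat tissue, -0.14 and 0.05, each with a 95% interval that includes 0. Over the 32 libraries Sfrp2 ran from 0.385 to 3.67 TPM and Sfrp5 from 0.476 to 6.77 TPM, and for both genes every group overlapped every other group.

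**Figure D3:**
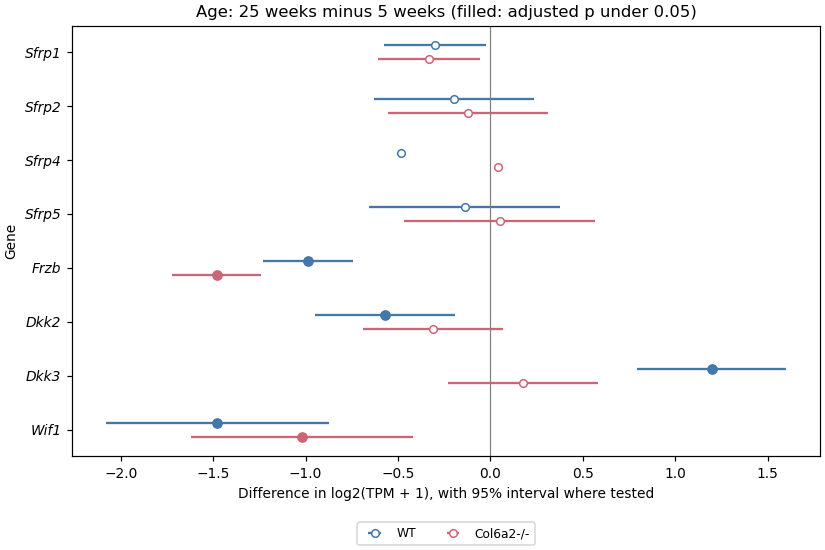
Difference between ages in log2(TPM + 1), 25 minus 5 weeks, for each antagonist in WT (blue) and Col6a2-/- (red); points are the model estimates, bars the 95% intervals, filled points are called, and Sfrp4 is described without a test or interval. Frzb (-0.99 and -1.48) and Wif1 (-1.48 and -1.02) are filled in both genotypes, Dkk2 (-0.57) and Dkk3 (1.20) in WT.

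Of the 8 antagonists, 5 had a promoter window in the RefSeq table for GRCm38.p6, and Frzb, Wif1 and Dkk2, which fell with age in WT, were among them. Their bases before the start are shown because these 3 genes moved in the same direction. Windows were searched on both strands for CTTTGA and CTTTGT, the letters of the core motif bound by Tcf and Lef factors, the nuclear partners of β-catenin, and for TATAAA, the TATA box core, and none of these overlaps another here. CTTTGA occurs in 16% of 32851 promoter windows of 300 bases, CTTTGT in 18.7% and TATAAA in 13.6%. Capitals mark matches on either strand, all sequences are given 5′ to 3′ on the strand of the gene, and Frzb is shown as the 30 bases around its match, which lie inside the longer GENCODE gene model.
Dkk2 upstream, chr3:132085042-132085291, plus strand: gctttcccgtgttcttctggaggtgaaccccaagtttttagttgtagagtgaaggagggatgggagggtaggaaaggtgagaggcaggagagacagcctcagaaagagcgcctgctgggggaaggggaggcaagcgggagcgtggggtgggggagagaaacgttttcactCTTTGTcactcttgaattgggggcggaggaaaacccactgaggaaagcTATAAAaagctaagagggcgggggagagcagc
Wif1 upstream, chr10:121033754-121033959, plus strand: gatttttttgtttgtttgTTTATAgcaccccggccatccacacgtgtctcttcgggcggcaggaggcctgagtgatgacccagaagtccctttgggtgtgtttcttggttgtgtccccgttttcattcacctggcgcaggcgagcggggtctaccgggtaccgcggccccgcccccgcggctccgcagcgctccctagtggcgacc
Frzb match, chr2:80447474-80447503, minus strand: tcccctgaaaacTCAAAGccttctcggaag
Positions are counted from the RefSeq start, which is 132085292 for Dkk2, 121034004 for Wif1 and 80447396 for Frzb. Dkk2 holds CTTTGT from position -80 and TATAAA from -32. Wif1 holds TTTATA, the other strand of TATAAA, from -232, and its printed bases end before the GENCODE start at 121033960, which lies upstream of the RefSeq start. Frzb holds TCAAAG, the other strand of CTTTGA, from -95. The windows of Sfrp2 and Sfrp5, which were not called with age, hold none of the 3 motifs. A match describes the letters only. The share of windows with any of the 3 motifs was not counted, and a link between motifs and age was not tested.

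Markers of several cell types were called with age as well. Of all genes, 15.3% were called lower at 25 weeks in WT and 28.8% in Col6a2-/-. The 1 of 5 macrophage markers in WT, and the 2 of 6 muscle fibre and 3 of 8 tenocyte markers in Col6a2-/-, are near those shares. The lists are short, and the other counts were not tested against the shares. In WT, 3 of 8 tenocyte markers fell (Tnmd, Kera and Scx, by 2.12, 1.77 and 0.76), as did 5 of 10 markers of fibro-adipogenic progenitors, 2 of 4 tested Schwann cell markers, 3 of 6 mural cell, 2 of 5 endothelial, 1 of 5 macrophage, 3 of 4 tested satellite cell and 2 of 6 muscle fibre markers. In Col6a2-/-, 3 tenocyte, 5 fibro-adipogenic progenitor, 4 Schwann cell, 3 mural cell, 3 endothelial, 5 macrophage, 3 satellite cell and 2 muscle fibre markers fell, and no listed marker rose in either genotype. The tenocyte list summed to 59.2 to 317 TPM in WT at 5 weeks and 20.6 to 186 TPM at 25 weeks, and to 70.7 to 397 TPM and 75.6 to 246 TPM in Col6a2-/-. The 2 mice with the most Wif1, 5-week WT male 3 and 5-week Col6a2-/- female 2, had the highest tenocyte sums (317 and 397 TPM), and the mouse with the least Wif1, 25-week WT male 3, had the lowest (20.6 TPM). The mouse with the next lowest Wif1 (0.448 TPM), 25-week Col6a2-/- male 1, had a tenocyte sum of 99.6 TPM. The mouse with the most Sfrp5 (6.77 TPM), 5-week WT male 1, had the highest Schwann cell sum (66.1 TPM), and the mouse with the least (0.476 TPM), 25-week Col6a2-/- male 4, had the lowest (2.38 TPM). Between these extremes the order did not hold: 25-week Col6a2-/- males 3 and 1 had the next highest Sfrp5 (4.94 and 4.87 TPM) at Schwann cell sums of 11.6 and 13.8 TPM, and 5-week WT male 4 had a sum of 42.6 TPM at 2.43 TPM of Sfrp5. The satellite cell and macrophage lists, like Frzb, had their highest group medians in 5-week Col6a2-/- mice. Within those males the order did not hold: male 1 had the least Frzb (4.63 TPM) at a satellite cell sum of 34.4 TPM, against 20.3 TPM in male 4. The satellite cell list summed to 3.52 to 5.98 TPM in WT and 4.67 to 10.0 TPM in Col6a2-/- at 25 weeks. In Col6a2-/- mice the fibro-adipogenic progenitor sum went from 612 to 2110 TPM at 5 weeks to 512 to 830 TPM at 25 weeks, while the mean of Sfrp4 was 5.67 TPM and then 5.84 TPM. The collagen genes Col3a1 (662 to 118 TPM) and Col1a1 (201 to 24.4 TPM) made up most of the fall in that sum. Lum (59.1 to 25.5 TPM), Smoc2 (44.9 to 26.1 TPM) and Cd34 (50.7 to 34.0 TPM) were called lower as well. The other 5 of the 10 markers were not called, among them Pdgfra, with means of 12.9 ± 3.32 and 12.9 ± 2.25 TPM (SD, n = 8). The part of these cells in the age results was not tested.

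**Figure D4:**
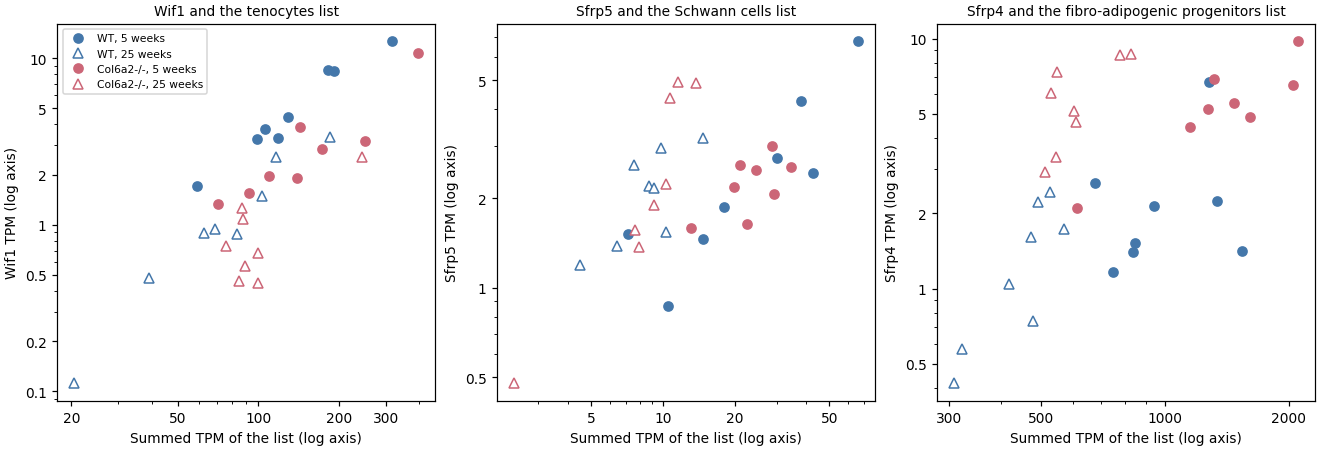
Level of Wif1, Sfrp5 and Sfrp4 in TPM (vertical, log axis) against the summed TPM of the tenocyte, Schwann cell and fibro-adipogenic progenitor lists (horizontal, log axis) in the 32 libraries; colour gives genotype, filled circles are 5 weeks and open triangles 25 weeks. The highest and lowest Wif1 values, 12.7 and 0.111 TPM, lie at tenocyte sums of 317 and 20.6 TPM, and the 25-week Col6a2-/- triangles of Sfrp4 (2.94 to 8.66 TPM) lie at sums of 512 to 830 TPM.

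For 4 of the antagonists, picked after their values were seen, the genes most like them over the 32 libraries were listed by Pearson r of log2(TPM + 1) among 12809 other genes. These libraries share groups and the scaling to a fixed total, and r is given as a description. For Sfrp4 they were C1s1 (0.899), Crip1 (0.882) and C1s2 (0.871), where C1s1 and C1s2 encode copies of a complement protease. For Frzb they were Fndc3c1 (0.928), Cav3 (0.927), the caveolin of muscle fibres, and Cdkn1c (0.920), a cell cycle inhibitor. For Wif1 they were Cilp2 (0.932), Kera (0.926) and 1500015O10Rik (0.911), and for Sfrp5 Cldn1 (0.798), a tight junction gene, Ndrg1 (0.787) and Itgb4 (0.783). Once the 8 group means were taken out, Wif1 was closest to Cilp2 (0.906), Fmod (0.890) and Tnmd (0.875), and Sfrp5 to Cldn1 (0.903), Itgb4 (0.869) and Ndrg1 (0.826). The lists of Sfrp4 and Frzb changed completely, to Psmd5 (0.818), Polr1c (0.810) and Cyp2j6 (0.793) and to Pdhx (0.840), Coq5 (0.799) and Ndufa10 (0.799). C1s1 and C1s2 are close copies whose reads may be shared between them.

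Sex was compared over both genotypes and ages, male minus female. None of the 8 antagonists was called by limma, beside 3.05% of all genes, and 1 of 8 (Frzb, 0.25 higher in males, SE 0.0837, limma adjusted p 0.112) had an unadjusted p under 0.05. Frzb was called without 5-week Col6a2-/- male 1 (0.29, limma adjusted p 0.0296). The other changes ran from -0.40 for Wif1 (95% interval -0.824 to 0.0279) to 0.25 for Dkk2 (95% interval -0.0228 to 0.514).

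The rest of the Wnt pathway was read from 6 lists of 78 genes, of which 36 passed the TPM filter. At 5 weeks 6 of the 36 rose in Col6a2-/- and none fell, with a median change of 0.109 beside 0.145 for all genes. Of all genes tested 25.4% were called and 23.2% called higher, so these genes were called no more often than genes in general. Wls, which carries Wnt proteins to the cell surface, rose from 6.56 ± 1.29 to 9.20 ± 2.17 TPM (SD, n = 8; 0.42, SE 0.0989, limma adjusted p 0.00282). The receptor genes Ror1 (0.29, limma adjusted p 0.00457) and Lrp5 (0.33, limma adjusted p 0.00677) rose, as did Kremen1, which encodes a dickkopf receptor (0.25, limma adjusted p 0.0413), the ligand Wnt11 (0.30, limma adjusted p 0.0418) and the Frizzled partner Dvl3 (0.29, limma adjusted p 0.0385). Wls kept its call in every alternative and every fit that left out 1 library. The calls of Kremen1, Wnt11 and Dvl3 were lost in 8, 9 and 8 of the 32 fits that left out 1 library, and those of Kremen1, Dvl3, Wnt11, Lrp5 and Ror1 under 8, 6, 5, 3 and 1 of the alternatives. None of 5 tested genes that β-catenin is known to activate was called (Axin2, Ccnd1, Myc, Wisp1 and Wisp2), nor Apcdd1 or Igfbp4.

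**Figure D5:**
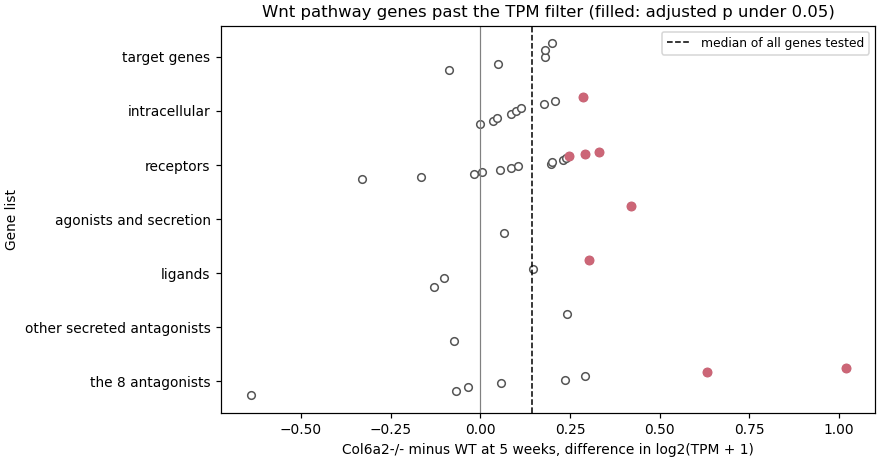
Difference between genotypes at 5 weeks in log2(TPM + 1), Col6a2-/- minus WT (horizontal axis), for the 8 antagonists and the 36 other Wnt pathway genes past the TPM filter, by list (vertical axis); each point is a gene, filled points are called, and the dashed line is the median of all 12817 genes (0.145). Sfrp4 (1.02) and Frzb (0.63) lie farthest to the right, and every filled point lies right of the dashed line. The row labelled other secreted antagonists holds Apcdd1 and Igfbp4, from the list of other Wnt antagonists.

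At 25 weeks 1 of the 36 other Wnt genes rose in Col6a2-/-, the receptor gene Fzd9 (4.19 ± 0.663 to 5.42 ± 0.966 TPM, SD, n = 8; 0.30, limma adjusted p 0.0321), and its call was lost in 9 of the 32 fits that left out 1 library and in 6 alternatives. With age, 8 of the 36 fell and none rose in WT, and 10 fell and 2 rose (Fzd9 and Fzd7) in Col6a2-/-. Of all genes, 15.3% were called lower in WT and 28.8% in Col6a2-/-, so these counts too are near the background. Among target genes, Ccnd1, which encodes cyclin D1, fell by 1.02 in WT and by 1.10 in Col6a2-/-, Wisp1 fell by 1.10 and by 1.29, and Myc fell by 0.40 and by 0.35 (each with a limma adjusted p of 0.00756 or less). Axin2, the most direct readout of β-catenin signalling among them, was not called in any of these comparisons and had 0.580 to 1.86 TPM over all libraries.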

How the data were processed

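Quadriceps RNA from 32 mice (8 groups of 4) was analysed, with groups taken from the labels. Per the labels' protocols, libraries came from frozen sections with a TruSeq RNA kit. The submitters' processing notes name Trimmomatic, HISAT2, SAMtools, StringTie, FastQC and MultiQC and the builds GRCm38 and mm10, without versions. Each deposited table gives the TPM, FPKM and coverage of each gene in 1 library, per the file headers. The deposited TPM values share a fixed total per library, of which mitochondrial RNA is part. The deposited FPKM values and the deposited coverage (mean read depth) served only to compare depth: their ratio ran from 6.78 to 13.69 between libraries, and read counts were not used here.

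TPM was summed per gene ID. Of these genes, 12817 reached 1 TPM in 4 or more libraries and were fitted as log2(TPM + 1), with a pseudocount of 1, in limma 3.58.1 (R 4.3.3; lmFit, eBayes with trend), with 1 mean per group and sexes weighted equally. Tests were two-sided, with Benjamini-Hochberg adjustment over all genes and a threshold of 0.05. Exact permutation tests enumerated 12870 splits (scipy 1.17.1). The fit was tested on simulated data. Gene IDs matched GENCODE M21 for 53620 of 53801.

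The members and gene lists were chosen with earlier results of these data known. All 8 antagonists were named, other Wnt genes where called for genotype (at most 6 per comparison), and like genes by the 3 highest r. Alternatives covered pseudocounts, filters, scalings, a replicate block, single ages and left-out libraries. Plots used matplotlib 3.10.9.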

Additional observations from a re-analysis of the deposited data

Results flagged for a closer look

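Each antagonist was checked in each group of 4 mice for a single value far from the other 3, by whether the gap takes up more of the group's range than Dixon's 95% critical value. Of 64 such checks 4 passed the limit, and chance alone gives about 3.2. Sfrp4 in 5-week WT male 1 (6.73 TPM) was far above the next value, 2.24 TPM. Sfrp4 in 5-week Col6a2-/- male 1 (9.79 TPM) was far above 5.54 TPM. In 25-week WT male 4, Frzb (0.877 TPM) lay far below the next value, 1.56 TPM, and Dkk2 (1.91 TPM) far above 1.02 TPM.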

How the results depend on the processing

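The calls of Sfrp4 and Frzb for genotype at 5 weeks held in all alternatives and in all 32 fits without 1 library (Sfrp4 0.84 to 1.32 and 0.92 to 1.21, Frzb 0.46 to 0.75 and 0.57 to 0.72), and no called value of an antagonist changed direction. Uncalled values near 0 did. For genotype at 5 weeks, Dkk2 (0.06) became -0.086 after median-of-ratios scaling, -0.048 without the 100 most abundant genes and -0.14 after quantile normalization, and Sfrp5 (-0.07) became 0.0018 without 5-week Col6a2-/- females 2 and 4. For age in Col6a2-/-, Sfrp2 (-0.12) became 0.064 after quantile normalization, and Sfrp5 (0.05) became -0.023 with a pseudocount of 0.1 and -0.019 without those 2 females. Leaving out 1 library gave -0.18 to 0.090 for Sfrp2, -0.18 to 0.095 for Sfrp5 and -0.11 to 0.19 for Dkk2 for genotype at 5 weeks, -0.25 to 0.023 for Sfrp5 for age in WT, and -0.25 to 0.027 for Sfrp2 and -0.089 to 0.25 for Sfrp5 for age in Col6a2-/-. The described values of Sfrp2 and Sfrp5 at 25 weeks and of Sfrp4 with age in Col6a2-/- also took both signs. The number of antagonists called in 5-week females, 2 as reported, was 1 with no filter on TPM (Frzb), 1 after median-of-ratios scaling (Sfrp4), 1 without 5-week Col6a2-/- females 2 and 4 (Sfrp4; chosen after seeing the data), and 0 when TPM was rescaled without mitochondrial and Rn7s genes, after quantile normalization or when only 5-week libraries were fitted. In 5-week males, 1 as reported, it was 2 (Frzb and Sfrp4) when TPM was rescaled without mitochondrial and Rn7s genes or without the 100 most abundant genes and without those 2 females, and 0 when only 5-week libraries were fitted. After median-of-ratios scaling or quantile normalization the 1 call in males was Sfrp4 in place of Frzb. For age in WT, 4 as reported, it was 2 (Frzb and Wif1) with a filter of 5 TPM, which 3 of the 8 antagonists passed, 3 with no filter on TPM (Dkk2 lost), and 4 with a pseudocount of 0.1, or 5 if Sfrp4, described without a test, is counted. Leaving out 1 library at a time gave 0 to 2 in females, 0 to 2 in males, 2 to 3 for genotype at 5 weeks, 3 to 5 for age in WT, 2 to 4 for age in Col6a2-/- and 0 to 1 for sex. The causes were not tested.

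Over all genes, the 3253 calls for genotype at 5 weeks became 1553 with the 5 TPM filter (6573 genes tested) and 1878 when only 5-week libraries were fitted. Calls in 5-week females (1648) ranged from 569 to 1726 and in 5-week males (645) from 295 to 1346 over the alternatives, for genotype at 25 weeks (603) from 343 to 1271, for age in WT (2536) from 1441 to 3603, for age in Col6a2-/- (4389) from 2263 to 5523, and for sex (391) from 258 to 828. Leaving out 1 library gave 455 to 3865 in 5-week females, where 6 libraries moved the count by over 1.5 times (WT females 1, 2 and 3 and Col6a2-/- females 1, 2 and 4), and 313 to 1003 in 5-week males, where 5 did (WT males 2 and 4, Col6a2-/- female 2 and Col6a2-/- males 1 and 4). It gave 270 to 983 for genotype at 25 weeks, where 9 did (25-week WT female 4 and males 2 and 3, 5-week Col6a2-/- females 2 and 4, and 25-week Col6a2-/- females 1 and 4 and males 1 and 3), 2207 to 4749 for genotype at 5 weeks, and 693 for sex without 5-week Col6a2-/- female 2.

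Replicate numbers were not taken to pair the mice. The deviations of same-numbered libraries had a median correlation of 0.032, with 35 of 112 pairs over 0.1, against -0.013 and 65 of 336 pairs for libraries with different numbers. With a replicate block, 2 antagonists (Frzb and Sfrp4) were called in 5-week males in place of 1, and 3293 genes in place of 3253 for genotype at 5 weeks.

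Depth limits these results: the antagonists lie at a few TPM or lower, where log2(TPM + 1) compresses change, and read counts were not used here, so counting error could not be set apart from the spread between mice.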

Other observations

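In some mice several antagonists stood at one end of their group together. In 25-week WT male 4, Dkk3 (13.2 TPM), Sfrp2 (3.37 TPM), Sfrp1 (1.38 TPM) and Dkk2 (1.91 TPM) were the highest of their group, Frzb (0.877 TPM) was the lowest, and mitochondrial RNA took 32% of TPM against 44.6% to 46.9% in the other 3 mice. In 5-week Col6a2-/- female 2, Sfrp1 (2.23 TPM), Sfrp2 (3.67 TPM), Dkk2 (4.61 TPM) and Wif1 (10.7 TPM) were the highest of their group, while Sfrp5 (1.64 TPM) was the lowest. In 5-week WT male 1, Sfrp4 (6.73 TPM), Sfrp5 (6.77 TPM) and Sfrp1 (1.59 TPM) were the highest of their group.

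At 25 weeks the WT sexes did not overlap in Sfrp4, with 1.61 to 2.43 TPM in females and 0.418 to 1.05 TPM in males. That difference was noticed after the values were seen and was not tested. The Wif1 values of 25-week WT mice ran from 0.874 to 3.37 TPM in females and 0.111 to 0.940 TPM in males and overlapped.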
